A study of Mus musculus with 4 samples.

Results

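Immediate-early stress and growth-arrest genes are switched on within minutes to hours of a growth signal, stretch, hypoxia or damage, and their messages are short-lived. The 9 genes described here are Zfp36, Ppp1r15a, Ier3, Ier5, Btg1, Btg2, Gadd45a, Gadd45b and Gadd45g. They were taken as every array clone whose only gene symbol is one of these names, which gave 11 clones among the 17207 array features with a value, and 9 genes among 8106 named genes. The genes were chosen by their names after the high-salt to low-salt ratios of these arrays had been seen, and those same log ratios guided the choice, so their ratios are given as a description, without a test.

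The hearts came from male wild-type mice, labelled 1-renin, of a 129Ola/C57BL/6J backcross at generation N5–6. All were uninephrectomized (1 kidney removed), received deoxycorticosterone acetate (DOCA, a mineralocorticoid hormone) and ate a low-salt food with 0.5 mg Na per g. Treatment began at 7 to 8 weeks of age and lasted 5 weeks, and the mice were 12 to 13 weeks old at the end. The drinking water held 1% NaCl in the high-salt group and was tap water in the low-salt group, so that DOCA and the loss of a kidney were shared by both groups and no untreated mouse was included. RNA of both ventricles with the septum was hybridised to printed 2-colour cDNA arrays, with a high-salt and a low-salt heart together on each array. There were 3 animal pairs on 4 arrays: array 1 held pair 1, arrays 2 and 4 held pair 2 with the dyes exchanged, and array 3 held pair 3. High-salt RNA was labelled with Cy3 for arrays 1 and 2 and with Cy5 for arrays 3 and 4.

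Several of these genes act after transcription or on the cell cycle. Zfp36 (tristetraprolin) binds AU-rich elements of cytokine messages and recruits the CCR4-NOT deadenylase, and Btg1 and Btg2 are antiproliferative proteins that bind the same deadenylase. Ppp1r15a (Gadd34) directs protein phosphatase 1 to eIF2alpha and so restores translation after stress. Gadd45a, Gadd45b and Gadd45g are small stress sensors that bind the MAP kinase kinase kinase Map3k4 and cell cycle kinases. Ier3 is a stress- and NF-kB-induced survival factor, and Ier5 is a nuclear early response protein.

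Each value below is a log ratio of an array as the authors deposited it, taken as log2 (an assumption) and read as high over low salt, the order in which the array titles word the comparison. Whether the dye-swapped arrays had already been turned to this direction is not stated. Over the 12480 clones with 1 symbol, Pearson's r within a dye orientation was 0.58 for arrays 1 and 2 and 0.46 for arrays 3 and 4, and between orientations it was -0.35 (arrays 1 and 3), -0.10 (1 and 4), -0.38 (2 and 3) and -0.10 (2 and 4, which held the same 2 mice). Over all 17207 features the 4 opposite pairs lay between -0.61 and -0.34. Negative values of this size leave the direction unsettled, so values are also given with arrays 3 and 4 turned in sign; in that reading the direction of every sign is unknown as well. A log ratio carries no level, so neither the abundance of a gene nor the tissue's identity can be read from it, and fewer cells of a type and less RNA per cell cannot be told apart.

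As deposited, 6 of the 9 genes lay below 0 on all 4 arrays: Zfp36, Ppp1r15a, Ier3, Ier5, Btg2 and Gadd45b. Btg2 is counted by the average of its 2 clones, which disagreed, with 0.53 and -1.86 on array 1. Among all 8106 genes 7.75% lay below 0 on all 4 arrays, and since the genes were chosen with these ratios known, nothing is read from the difference. None of the 9 lay above 0 on all 4 arrays, against 7.01% of all genes. The means of 8 of the 9 lay below 0, as did 50.1% of all gene means. The median of the 9 mean log2 ratios was -0.46, and that of all genes was -0.0002. Gadd45a, Gadd45g and Btg1 were the 3 without a common sign.

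**Figure D1:**
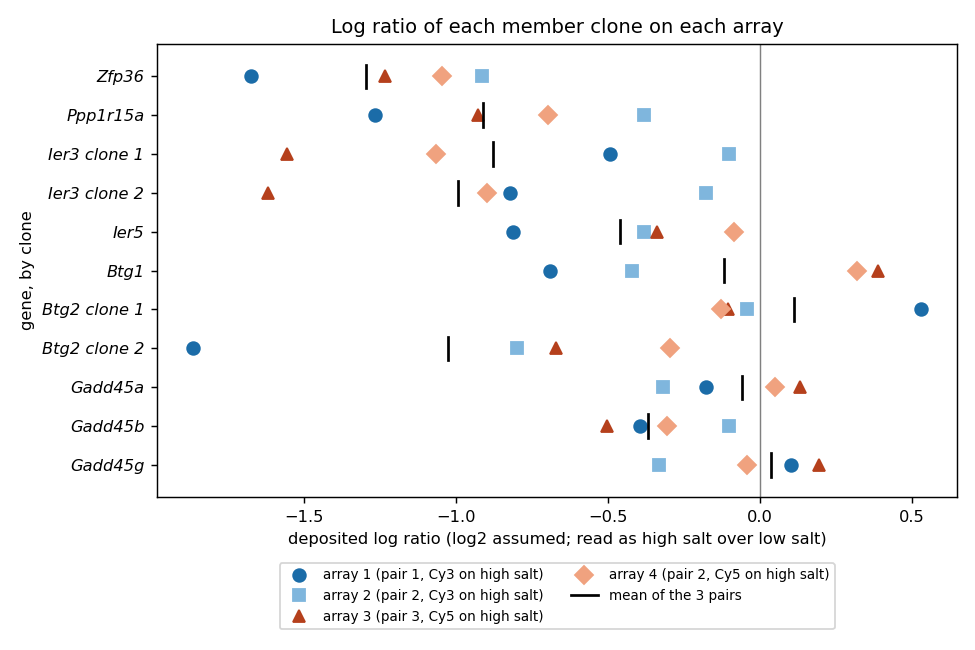
Deposited log ratio (x axis, log2 assumed, read as high over low salt) of each of the 11 clones (y axis) on arrays 1 to 4, with a bar at the mean of the 3 animal pairs. Zfp36, Ppp1r15a and Ier3 lie left of 0 on every array, Btg1 lies on either side of 0 by dye, and the 2 Btg2 clones lie apart.

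Zfp36 had the lowest mean of the 9 genes as deposited; with arrays 3 and 4 turned, Btg1 did. The only Zfp36 clone stood at -1.67 on array 1, -0.91 and -1.05 on arrays 2 and 4 of pair 2, and -1.23 on array 3. All 4 values lay far below 0, and as deposited the repeated arrays of pair 2 differed by 0.13, a smaller gap than in 63.3% of genes. With array 4 turned they differed by 1.96, a larger gap than in 99.5% of genes. The genes were chosen with these ratios known. Nothing about the direction is therefore read from these shares or from those of Ppp1r15a, Ier3 and Btg1 below. The Zfp36 mean was -1.30 ± 0.35 (SD, n = 3 pairs), a ratio of 0.407, as deposited and -0.12 ± 1.46 with arrays 3 and 4 turned.

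The promoter sequences of 5 genes are shown, those of the 3 with the lowest means as deposited (Zfp36, Ier3 and Ppp1r15a) and of the Btg pair, because they hold matches to textbook elements of inducible promoters. Each runs from 250 bases before to 50 bases after the start, from RefSeq on GRCm38.p6, with 1 window per gene found for all 9. Capitals mark matches on either strand to the cyclic AMP response element (CRE) TGACGTCA or its core TGACG, to TATAAA, to AP-1 (TGANTCA), and to the CArG box and the NF-kB consensus, which are searched by name.
The Zfp36 window is chr7:28379179-28379478, minus strand, with a CArG box, the binding site of serum response factor, from -58 to -49.
Zfp36: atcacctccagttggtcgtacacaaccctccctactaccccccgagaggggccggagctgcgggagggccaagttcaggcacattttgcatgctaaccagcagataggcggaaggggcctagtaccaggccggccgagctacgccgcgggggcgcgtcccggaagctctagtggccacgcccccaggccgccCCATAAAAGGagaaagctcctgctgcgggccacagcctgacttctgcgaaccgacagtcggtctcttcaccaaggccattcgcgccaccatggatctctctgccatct
The Ppp1r15a window is chr7:45526219-45526518, minus strand, with a CRE from -12 to -5. After the start it holds the CRE core on the other strand from 8 to 12 and TATAAA from 16 to 21.
Ppp1r15a: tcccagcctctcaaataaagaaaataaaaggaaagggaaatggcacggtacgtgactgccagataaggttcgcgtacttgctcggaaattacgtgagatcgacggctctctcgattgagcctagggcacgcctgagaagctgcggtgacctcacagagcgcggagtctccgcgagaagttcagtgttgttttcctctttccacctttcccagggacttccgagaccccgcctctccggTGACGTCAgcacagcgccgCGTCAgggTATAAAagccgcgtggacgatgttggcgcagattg
The Ier3 window is chr17:35821463-35821762, plus strand, with an NF-kB consensus on the other strand from -92 to -83.
Ier3: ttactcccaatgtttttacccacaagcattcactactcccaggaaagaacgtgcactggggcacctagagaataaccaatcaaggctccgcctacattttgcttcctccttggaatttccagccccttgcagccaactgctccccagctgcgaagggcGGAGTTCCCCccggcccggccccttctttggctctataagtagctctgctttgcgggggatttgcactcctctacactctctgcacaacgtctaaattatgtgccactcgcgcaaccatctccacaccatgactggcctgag
The Btg2 window is chr1:134079106-134079405, minus strand, with a CRE from -166 to -159.
Btg2: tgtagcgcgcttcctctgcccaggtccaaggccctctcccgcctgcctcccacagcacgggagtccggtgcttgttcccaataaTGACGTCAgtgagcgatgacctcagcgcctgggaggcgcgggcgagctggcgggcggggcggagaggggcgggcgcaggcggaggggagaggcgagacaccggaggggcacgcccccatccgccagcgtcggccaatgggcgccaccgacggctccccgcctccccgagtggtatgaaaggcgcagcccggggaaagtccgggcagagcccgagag
The Btg1 window is chr10:96616751-96617050, plus strand, with TATAAA from -26 to -21 and the CRE core at -187 and -103.
Btg1: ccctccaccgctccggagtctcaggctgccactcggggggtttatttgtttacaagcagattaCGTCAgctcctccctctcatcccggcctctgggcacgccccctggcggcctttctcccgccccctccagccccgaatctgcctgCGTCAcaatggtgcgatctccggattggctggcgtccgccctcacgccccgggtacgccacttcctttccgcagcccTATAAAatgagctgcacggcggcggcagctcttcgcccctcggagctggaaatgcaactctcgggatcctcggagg

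These elements were not shared by the whole set. The full CRE was found in the windows of 2 of the 9 genes (Ppp1r15a and Btg2), and in 1.79% of all 32851 promoter windows of the same length. The CArG box was found only for Zfp36, against 1.63% of all windows, and the NF-kB consensus only for Ier3, against 8.46%. TATAAA occurred in 4 of 9 (Ppp1r15a, Btg1, Gadd45b and Gadd45g) and in 13.6% of all windows, and AP-1 in 0 of 9 and 7.81%. In Ppp1r15a the TATAAA lay after the start. The CRE core, which every full CRE contains, was found in 3 of 9 and 20.8%. A p53 decamer, the repeat unit of p53 sites (by name), lay in the windows of Ier5, from -166 to -157, and Gadd45a, from -40 to -31, against 8.36% of all windows. The E-box CACGTG was found for Gadd45b and Gadd45g and in 7.15% of windows. Sp1 (GGGCGG) and CCAAT were each found in 7 of the 9, against 35.7% and 37.4% of windows. A match is a run of letters in a window and not a measured site.

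**Figure D2:**
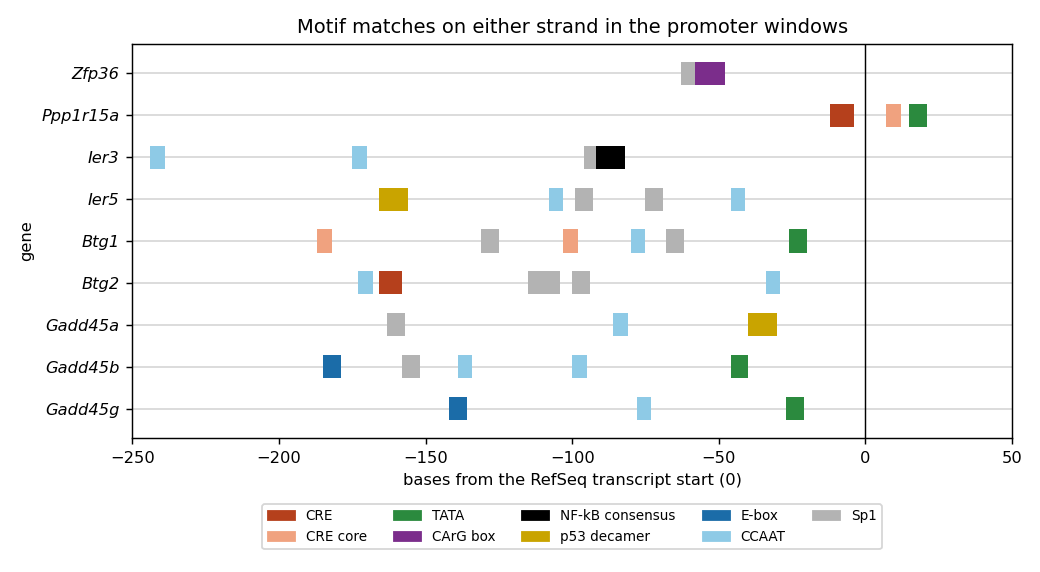
Matches to 9 motifs on either strand (coloured bars) in the 300-base promoter window of each of the 9 genes (y axis), by distance in bases from the RefSeq transcript start (x axis). The CRE bars belong to Ppp1r15a and Btg2, the CArG bar to Zfp36 and the NF-kB bar to Ier3.

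Ppp1r15a, with 1 clone, stood at -1.27 on array 1, -0.38 and -0.70 on arrays 2 and 4, and -0.93 on array 3. It was below 0 throughout, and lowest in pair 1, as Zfp36 was. Its mean was -0.91 ± 0.36 (SD, n = 3 pairs), a ratio of 0.532, as deposited and -0.06 ± 1.11 with arrays 3 and 4 turned. The part of its log ratio that turned with the dye was -0.0051, against a median size of 0.094 over all genes. This part is 0.5 times the difference between the mean of arrays 1 and 2 and that of arrays 3 and 4. It also sets pair 1 against pair 3, so differences can cancel in it, and nothing is read from its size. Within pair 2, arrays 2 and 4 differed by 0.32, a gap larger than in 66.7% of genes as deposited. With array 4 turned they differed by 1.08, a larger gap than in 97.2% of genes. The Ppp1r15a paralog Ppp1r15b supplies the same phosphatase function without stress and was named after its values were seen. Ppp1r15b stood at -0.02 ± 0.12.

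Both Ier3 clones gave a similar picture. The clone with the lower mean stood at -0.82, -0.18, -1.62 and -0.90 on arrays 1 to 4. The other clone stood at -0.49, -0.10, -1.55 and -1.07. Each was lowest on array 3 and nearest to 0 on array 2, and the clone means of -0.99 and -0.88 differed by 0.11, a gap reached or passed by 42.7% of the 1870 genes with 2 clones. The gene mean was -0.93 ± 0.57 (SD, n = 3 pairs), a ratio of 0.523. Without pair 3 the mean was -0.61. The arrays of pair 2 stood at -0.14 and -0.98 over both clones, a gap larger than in 92.8% of genes as deposited and, at 1.12, than in 97.4% with array 4 turned, and the part turning with the dye was 0.44.

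Ier5, with 1 clone, lay below 0 with smaller values, at -0.81 on array 1, -0.38 and -0.09 on arrays 2 and 4, and -0.34 on array 3. Its mean was -0.46 ± 0.31 (SD, n = 3 pairs), a ratio of 0.727. Pair 1 was the lowest, and the mean was -0.28 without it.

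The 2 Btg2 clones disagreed. One stood at -1.86, -0.80, -0.67 and -0.29 on arrays 1 to 4, with a mean of -1.03 ± 0.73 (SD, n = 3 pairs). The other stood at 0.53, -0.04, -0.10 and -0.13, with a mean of 0.11 ± 0.36. The clone means were 1.14 apart, and only 5 of the 1870 genes with 2 clones (0.267%) had a gap this large, against a median gap of 0.094. The gene mean of -0.46 ± 0.19, which averages the clones, therefore describes neither of them, and its SD is smaller than that of either clone, which lay on opposite sides of 0 on array 1. Which clone reports Btg2 was not tested.

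Btg1, the close relative of Btg2, followed the dye. Its only clone was negative on both arrays with Cy3 on high salt, at -0.69 (array 1) and -0.42 (array 2), and positive on both with Cy5 on high salt, at 0.39 (array 3) and 0.32 (array 4). Arrays 2 and 4 held the same RNA pair, and array 2 minus array 4, at -0.74, was a gap larger than in 90.7% of genes as deposited. With array 4 turned the gap was -0.10, larger than in 33.0% of genes. The mean as deposited was -0.12 ± 0.54 (SD, n = 3 pairs), and it was 0.17 without pair 1 and -0.37 without pair 3. With arrays 3 and 4 turned, Btg1 had 1 sign on all arrays and a mean of -0.48 ± 0.18.

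The 3 Gadd45 genes differed from one another. Gadd45b stood at -0.39, -0.10, -0.50 and -0.30 on arrays 1 to 4, below 0 on each, with a mean of -0.37 ± 0.15 (SD, n = 3 pairs), a ratio of 0.776. Gadd45a stood at -0.18, -0.32, 0.13 and 0.05, so that its sign also went with the dye, and its mean was -0.06 ± 0.17. Gadd45g stood at 0.10, -0.33, 0.19 and -0.04, with both signs in both orientations and a mean of 0.04 ± 0.20, which was -0.04 without pair 3. As deposited, the means of Gadd45a and Gadd45g lay within 1 SD of 0. With arrays 3 and 4 turned, Gadd45a had a mean of -0.16 ± 0.03 and Gadd45g of -0.08 ± 0.16. The root mean square difference over the 4 arrays was 0.15 between Gadd45a and Gadd45g, 0.40 between Gadd45a and Gadd45b, and 0.46 between Gadd45b and Gadd45g.

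**Figure D3:**
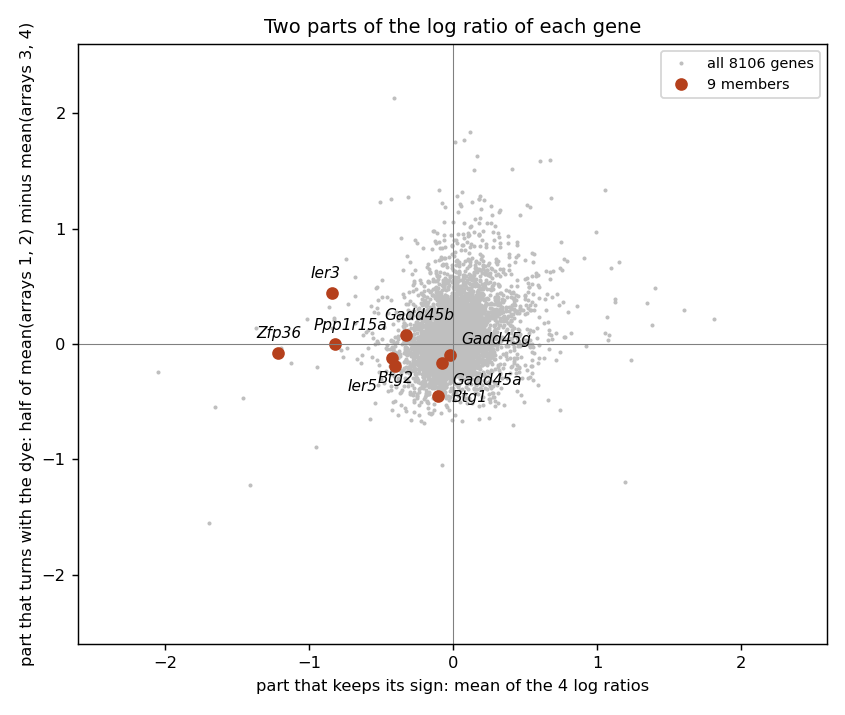
Mean of the 4 deposited log ratios (x axis, log2 assumed) against 0.5 times the difference between the mean of arrays 1 and 2 and the mean of arrays 3 and 4 (y axis), for 8106 genes (grey) and the 9 described genes (red). Zfp36 and Ppp1r15a lie far left near the horizontal line, whereas Btg1 lies near the vertical line at -0.45 on the y axis.

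By animal pair, pair 2 was nearest to 0 for all 6 genes below 0 on all arrays, for example -0.98 against -1.67 and -1.23 for Zfp36 and -0.54 against -1.27 and -0.93 for Ppp1r15a. Among the 628 genes below 0 on all 4 arrays, pair 2 was nearest to 0 in 22.1%, and since the 6 were chosen with these ratios known, nothing is read from the difference. Pair 2 is the mean of 2 arrays of opposite dye and the other pairs are 1 array each, so pair and array number cannot be told apart. High-salt RNA carried only Cy3 in pair 1 and only Cy5 in pair 3. Differences between pairs 1 and 3, and every SD over the 3 pairs, therefore mix animal and dye. The lowest pair was pair 1 for Zfp36, Ppp1r15a, Ier5 and Btg2, and pair 3 for Ier3 and Gadd45b. For Btg2 this is the average of 2 clones, and the clone with the higher mean was highest in pair 1, at 0.53.

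Reading the arrays the other way changed which genes kept a common sign. With arrays 3 and 4 turned, Btg1 and Gadd45a lay below 0 on all 4 arrays, as did 12.7% of all genes, and the 6 genes listed earlier split by dye. The means of 7 of the 9 lay below 0 in that reading, against 46.7% of all genes. Beside the values of Zfp36 and Ppp1r15a given earlier, Ier3 then had a mean of 0.45 ± 1.12 (SD, n = 3 pairs), Ier5 -0.21 ± 0.58, Btg2 -0.13 ± 0.53 and Gadd45b 0.07 ± 0.45. In that reading the SD of each of the 6 exceeded the size of its mean. These 6 had 1 sign on all arrays as deposited, so turning puts pairs 1 and 3 on opposite sides of 0 by construction. Nothing is read from their split or their larger SD. Over all genes, 31.3% had 1 sign on all arrays when arrays 3 and 4 were turned and 14.8% as deposited.

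Across the whole table, limma called 0 of 8106 genes at a Benjamini-Hochberg adjusted p under 0.05, so that the called share was 0.0% and 0 of the 9 genes passed. The unadjusted p lay under 0.05 for 228 genes above 0 (2.81%) and 213 below 0 (2.63%), as deposited. The lists of related genes that follow were chosen with earlier results of these arrays known, and the 9 genes are left out of them. Beside their splits as deposited stands the share of all gene means below 0, 50.1%. Since the lists were chosen with those results known, nothing is read from differences between a list and all genes.

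As deposited, other rapid response genes (transcription factors, feedback inhibitors and secreted early products) lay mostly below 0. Of 31 measured of 58 listed, 21 were below and 10 above 0, 12 were below 0 on all 4 arrays (7.75% of all genes) and 4 above (7.01%). The median was -0.23, against -0.0002 over all genes. With arrays 3 and 4 turned the median was -0.09, and 18 lay below and 13 above 0. In that reading 46.7% of all gene means lay below 0. By limma as deposited, 0 passed the adjusted threshold. In the same fit, 12 genes below 0 (2.63% of all genes) and 3 above (2.81%) had an unadjusted p under 0.05. Egr1, a zinc finger transcription factor of the serum response, stood at -2.30 ± 1.00 (SD, n = 3 pairs) and Irf1, an interferon-regulated transcription factor, at -1.26 ± 0.26. On the other side, Trib1, a pseudokinase, stood at 0.32 ± 0.11 and Id2, an inhibitor of helix-loop-helix factors, at 0.29 ± 0.08. The Zfp36 relatives Zfp36l1 and Zfp36l2, named after their values were seen, stood at -0.17 ± 0.23 and 0.02 ± 0.08.

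Known Zfp36 target messages are cytokines, chemokines and growth regulators whose AU-rich ends the protein binds. Of 28 measured of 35 listed, 19 lay below and 9 above 0, with 8 below (7.75% of all genes) and 4 above (7.01%) on all 4 arrays, and the median was -0.11 (-0.03 with arrays 3 and 4 turned, and -0.06 without pair 3). By limma 0 passed the adjusted threshold. In the same fit, 8 genes below 0 (2.63% of all genes) and 1 above (2.81%) had an unadjusted p under 0.05. The lists overlap: Myc and Ptgs2, both among these genes below 0, are counted in the rapid response list too. Cdkn1a is also in the p53 and growth arrest list. Ccl2, a monocyte chemokine, stood at -1.66 ± 1.12 (SD, n = 3 pairs), with -2.93 in pair 1 against -0.85 and -1.19 in pairs 2 and 3. Csf1, the macrophage growth factor, stood at -0.93 ± 0.50. Ccnd1, cyclin D1, stood at 0.39 ± 0.16, and Hif1a, the oxygen-regulated transcription factor, at 0.23 ± 0.17.

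Of 30 measured deadenylation and decay factors, among them partners of Zfp36 and the Btg proteins, 18 lay below and 12 above 0, with a median of -0.04. With arrays 3 and 4 turned, 12 lay below and 18 above 0, with a median of 0.02. Without pair 3, 13 lay below and 17 above 0, with a median of 0.05. Pan2, a subunit of the PAN2-PAN3 deadenylase, stood at -0.11 ± 0.07 (SD, n = 3 pairs), Cnot2, a CCR4-NOT subunit, at -0.09 ± 0.05, Pabpc1, the main cytoplasmic poly(A)-binding protein, at 0.19 ± 0.14 and Cnot6, a CCR4-NOT deadenylase subunit, at 0.17 ± 0.12. Prmt1, a protein arginine methyltransferase named after its values were seen, had the highest mean of the list, 0.60 ± 1.72, and stood at 2.53, 0.63, -0.77 and -0.54 on arrays 1 to 4, a sign that turned with the dye. By limma 0 of the 30 passed, and 0 had an unadjusted p under 0.05.

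Of 28 measured genes of the integrated stress response, the pathway whose phosphorylated eIF2alpha is reversed with the help of Ppp1r15a, 19 lay below and 9 above 0, with a median of -0.02. Without pair 1 the split was 15 below and 13 above. Xbp1, a transcription factor of the unfolded protein response, stood at -0.47 ± 0.29 (SD, n = 3 pairs) and Eif2b3, a subunit of the eIF2 exchange factor, at -0.30 ± 0.18. Nupr1, a stress-induced chromatin protein, stood at 0.67 ± 0.54 and Psat1, an enzyme of serine synthesis, at 0.41 ± 0.26. By limma 0 passed, and an unadjusted p under 0.05 was found for 2 lower (2.63% of all genes) and 1 higher (2.81%).

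As deposited, growth-arrest and p53 pathway genes were split, with 14 above and 12 below 0 of 26 measured and a median of 0.01. With arrays 3 and 4 turned, 8 lay above and 18 below 0, with a median of -0.08. As deposited but without pair 1, 19 lay above and 7 below 0, with a median of 0.07. Foxo3, a forkhead transcription factor, stood at 0.51 ± 0.43 (SD, n = 3 pairs) and Gas1, a growth-arrest membrane protein, at 0.36 ± 0.22. Ddb2 and Xpc, sensors of damaged DNA, stood at -0.09 ± 0.03 and -0.05 ± 0.09. Cdkn1a, the p21 cell cycle inhibitor, which was singled out after its values were seen, stood at 1.19 on array 1, 1.46 and 0.29 on arrays 2 and 4, and -0.17 on array 3. By limma 0 of the 26 passed, and an unadjusted p under 0.05 was found for 1 higher (2.81% of all genes) and 0 lower (2.63%).

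Gadd45 partners and MAP kinases were split evenly, with 11 above and 11 below 0 of 22 measured and a median of -0.0026. Cdk1, the mitotic kinase that Gadd45 proteins bind, stood at 0.54 ± 0.13 (SD, n = 3 pairs) and Ccnb2, cyclin B2, at 0.32 ± 0.21. Mapk9, a JNK kinase, stood at -0.23 ± 0.08 and Map2k6, a kinase upstream of p38, at -0.17 ± 0.10. By limma 0 passed, and an unadjusted p under 0.05 was found for 2 higher (2.81% of all genes) and 1 lower (2.63%).

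**Figure D4:**
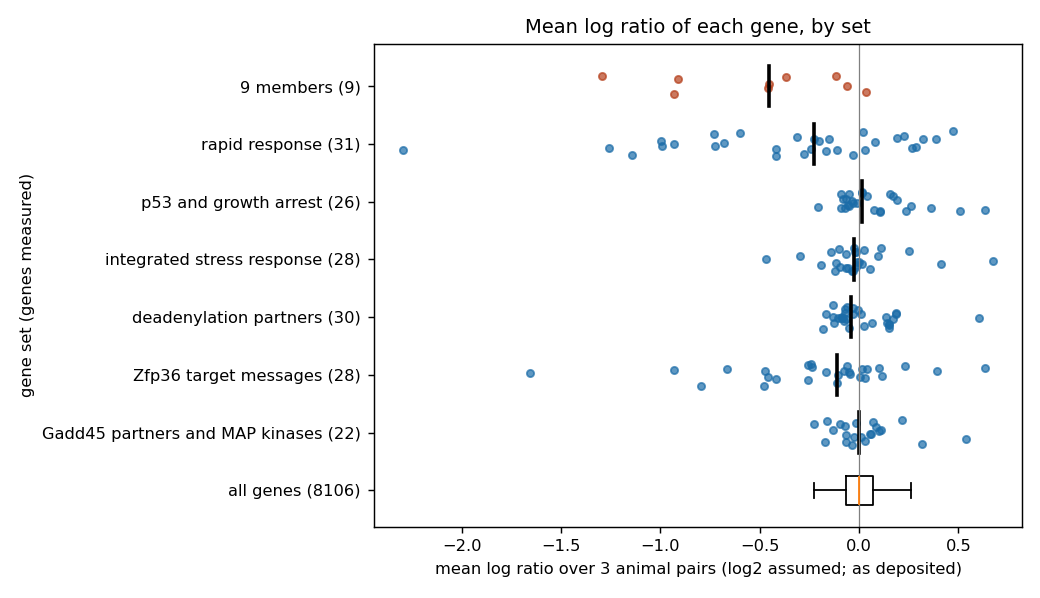
Mean log ratio over the 3 animal pairs (x axis, log2 assumed, as deposited) of each measured gene, for the 9 described genes, 6 related lists and all 8106 genes (box from the 25th to the 75th percentile, whiskers at the 5th and 95th). Black bars are medians; that of the 9 genes is -0.46 and that of the rapid response list -0.23, whereas the other 5 lists have medians between -0.11 and 0.01.

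The genes nearest to Zfp36 were found by the root mean square difference of the 4 array log ratios over the other 8105 genes. They were Irf1 (0.26), Vdac1, a channel of the outer mitochondrial membrane (0.27), Atf3, a stress-induced transcription factor (0.41), Ppp1r15a (0.41) and Arntl, the clock transcription factor Bmal1 (0.47). Ppp1r15a was thus the only described gene among the 5. Nearest to the median profile of the 9 genes were Arrdc4, an arrestin-domain protein (0.08), Ctnnal1, a catenin-like protein (0.08), Vwa8 (0.10), Otud1, a deubiquitinase (0.11), and Pnrc1, a nuclear receptor coregulator (0.13), out of 8097 other genes. With 4 arrays this likeness describes these arrays only.

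Markers of other cells that ventricle pieces hold were measured in part. Of the neutrophil markers 2 of 8 were measured, S100a9 at -1.42 ± 0.45 (SD, n = 3 pairs) and Lcn2 at 1.30 ± 0.29, on opposite sides of 0. Of the macrophage and leukocyte markers 3 of 12 were measured, with medians of 0.13, 0.19 and 0.06 in pairs 1 to 3. Lyz2 (0.45 ± 0.38) and Fcer1g (0.15 ± 0.08) lay above 0, and Cd14 (-0.39 ± 0.29) lay below 0 in each pair. Fibroblast markers lay at medians of 0.34, 0.28 and 0.35 in the pairs, with 8 of 9 measured above 0, and endothelial markers at 0.27, 0.16 and -0.12, with 3 of 5 above. Measured were also 3 smooth muscle, 5 adipocyte, 2 red cell and 2 cardiomyocyte markers. With arrays 3 and 4 turned, the medians over pairs were 0.0061 for fibroblast, 0.0092 for smooth muscle, 0.07 for endothelial, -0.16 for macrophage, 0.17 for neutrophil, -0.06 for adipocyte, -0.007 for red cell and -0.13 for cardiomyocyte markers, against 0.37, 0.18, 0.14, 0.15, -0.06, -0.06, -0.02 and -0.05 as deposited. The part of these cells in the ratios of the 9 genes was not tested.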

How the data were processed

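RNA of ventricles was compared on 4 printed 2-colour arrays with 3 pairs of mice. The deposited values are 1 log ratio of the dyes for each feature on each array, which the authors computed and which are read here as log2. How they did so (base, direction, background correction, normalization) is not given in the sources used here. No intensities were used. Array medians lay between -0.0062 and 0.01. Of 17664 features, 457 had no value on any array. Platform annotation gave 12563 features 1 symbol, 412 several (not named) and 4689 none; 12480 of those with 1 symbol had values and were averaged to 8106 genes. Of the IDs of the 12563, 12555 were found in RefSeq (GRCm38.p6). Arrays 2 and 4 were averaged, and the 3 pairs were fitted against 0 with limma 3.58.1 in R 4.3.3 (intercept, eBayes, Benjamini-Hochberg at 0.05 over all genes), after a test on simulated data.

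Genes and lists were chosen with earlier results of these data known. From each list the 2 genes with the largest mean in each direction among those with 1 sign on all arrays are named, with the 5 genes nearest to Zfp36 and to the median profile. Alternatives were the turned arrays, 1 array for pair 2, leaving out a pair, 2 between-array scalings, the median over clones, a dye covariate and a fit of clones. Proteins of the family were not analysed here. The number of arrays limits the precision, and nothing in the labels says how RNA of the pairs was handled. The p-values rest on the spread between these pairs, which mixes animal and dye, moderated over all genes by eBayes.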

Additional observations from a re-analysis of the deposited data

Results flagged for a closer look

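Of the 9 genes, 2 had opposite signs on every array of the 2 dye orientations. For Btg1 the mean of the arrays with Cy3 on high salt minus the mean of those with Cy5 on high salt was -0.91, and for Gadd45a it was -0.34. The difference was not tested. The same split, of either sign, was found in 31.3% of all genes.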

How the results depend on the processing

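No gene passed the adjusted threshold of limma under any of the 11 alternatives run, where the smallest adjusted p lay between 0.0754 and 1.0. At an unadjusted p under 0.05 the counts of 228 higher and 213 lower became 1118 and 565 with arrays 3 and 4 turned, 643 and 545 with a dye covariate, 74 and 71 without pair 2 and 511 and 340 without pair 3; the cause was not tested. Members with a mean below 0 numbered between 6 and 9 under the 10 alternatives run for this count, against 8. The count of genes of the set with 1 sign on all 4 arrays went from 6 to 2 with arrays 3 and 4 turned, where the sign change is the construction itself. Under the 9 alternatives that left the direction as deposited, the means of Zfp36 lay between -1.45 and -1.11, of Ppp1r15a between -1.10 and -0.73, of Ier3 between -1.12 and -0.61, of Ier5 between -0.57 and -0.28, of Btg2 between -0.53 and -0.35 and of Gadd45b between -0.45 and -0.30. Btg1 (-0.37 to 0.17), Gadd45a (-0.15 to 0.0027) and Gadd45g (-0.04 to 0.15) included both signs. Of the 9 alternatives, the dye covariate and the median over clones cannot move the mean of any described gene. The covariate is balanced over the 3 pairs, and no described gene has more than 2 clones. Neither therefore adds to these ranges or to the count of means below 0. The Btg2 range is that of the average of its 2 clones, which disagreed. Of 60 list medians recomputed, 57 moved by less than the SD over pairs; the others were rapid response, at -0.0876 with arrays 3 and 4 turned, p53 and growth arrest, at -0.0819 with them turned, and deadenylation partners, at 0.0523 without pair 3. Leaving out 1 pair in turn, the deadenylation median ran from -0.0451 to 0.0523. The dye covariate cannot move a list median either, and its list medians are counted among the 57. Among the genes nearest to Zfp36, 5 of 5 were the same by the largest difference over arrays, and 4 of 5 for the median profile. On the plus strand alone, Sp1 was found for 3 of the 9 genes and the NF-kB consensus for 0. A fit with the animal pair as a random block could not be fitted, since 3 blocks over 4 arrays gave no correlation. The ratios are already within animal pairs, which is what was tested, and no further replicate block was fitted.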

Other observations

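The related lists differed in how many genes had a sign that turned with the dye on every array. This was so for 11 of 26 p53 and growth-arrest genes (42.3%), 12 of 30 deadenylation factors (40.0%) and 10 of 28 integrated stress response genes (35.7%), for 5 of 22 Gadd45 partners and MAP kinases (22.7%), 6 of 28 Zfp36 target messages (21.4%) and 5 of 31 rapid response genes (16.1%), against 31.3% of all genes. The differences between lists were not tested. Shmt2, a mitochondrial enzyme of one-carbon metabolism in the integrated stress response list, was singled out after its values were seen. It stood at 1.23 and 0.85 on the arrays with Cy3 on high salt and at -1.10 and -0.57 on those with Cy5 on high salt.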
